A study of Mus musculus with 23 samples.

Results

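Ovaries of NZO/HlLtJ females were compared with ovaries of CAST/EiJ females on the 10% fat diet, 4 libraries against 4, which are 8 of the 23 libraries of the series. The members were taken by the strain and diet given in the sample titles. NZO/HlLtJ is an inbred strain prone to obesity and diabetes, and CAST/EiJ is an inbred strain derived from wild Mus musculus castaneus. All 8 libraries came from wild-type females that were fed 10% fat with fiber from 6 weeks of age and sampled at 15 weeks, with no other treatment, and polyA RNA of the whole ovary was sequenced. The rest of the series holds the same strains on a 44% fat, high sugar diet and C57BL/6J on both diets. The stage of the oestrous cycle was not labelled. Whether the 4 libraries of a group are 4 animals is not labelled either, and p-values measure the spread between libraries.

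The ovary holds follicles, in which granulosa cells surround the oocyte and theca cells lie outside, and, after ovulation, corpora lutea that make progesterone. Granulosa cells send hedgehog ligands to the theca and Kit ligand to the oocyte, while luteal cells respond to prolactin and to prostaglandin F2α. Resident macrophages, lymphocytes and vessels lie between these structures. Cells show peptides to T cells on MHC class I and class II molecules, and interferons switch on many of the genes for antigen display and for defence against intracellular microbes.

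Levels are CPM, estimated gene counts scaled to the size of each library, given as mean ± SD of 4 libraries or library by library in the order of replicates 1 to 4. Library totals were 37.13 to 45.39 M counts. A gene was called where edgeR's quasi-likelihood test over 20189 genes gave an adjusted p under 0.05, and a log2 difference above 0 means higher in NZO/HlLtJ. One library stood apart. In CAST/EiJ replicate 2 the summed level of 12 oviduct epithelium markers was 5292 CPM, against 59.96 to 65.74 in the other CAST/EiJ libraries and 25.81 to 31.26 in NZO/HlLtJ. For 13 white adipocyte markers the sum was 3698 CPM there, 261.7 to 367.4 in the other CAST/EiJ libraries and 263.8 to 304.5 in NZO/HlLtJ. Counts of called genes in a list are therefore also given without that library where they changed. Library identifiers began with 76, 76, 82 and 82 in NZO/HlLtJ and with 76, 82, 90 and 90 in CAST/EiJ, and no label says what these series stand for. The genome build was GRCm38, which derives from C57BL/6J, and how reads of the other strains were matched to it is not given in the sources used here.

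The strains differed in 6757 genes, or 33.5% of those tested. Of these, 3296 were higher in NZO/HlLtJ (16.3%) and 3461 in CAST/EiJ (17.1%). A difference of at least 2-fold was found for 1673 genes higher in NZO/HlLtJ (8.29%) and 1711 higher in CAST/EiJ (8.47%). Without CAST/EiJ replicate 2, 6631 genes were called (33.0%), 3463 higher in NZO/HlLtJ and 3168 in CAST/EiJ (17.2% and 15.8%), and 5537 of them were among the 6757. At 2-fold the counts without that library were 1803 (8.97%) and 1302 (6.47%). DESeq2 called 7294 of 23267 genes (31.3%). For 5828 genes (28.9%) the libraries of the strains did not overlap. The median log2 difference over all tested genes was -0.02. Among the 3384 genes called at 2-fold (16.8%), the mean of C57BL/6J on 10% fat lay nearer to NZO/HlLtJ in 2705 and nearer to CAST/EiJ in 679. How far sequence differences from the reference moved these counts was not tested.

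Some gene lists for cell types and pathways departed from this background in both directions and others lay near it, as the plot of called shares by list shows. The background was 16.3% higher in NZO/HlLtJ and 17.1% in CAST/EiJ, or 17.2% and 15.8% without CAST/EiJ replicate 2. The count of each list below is to be read against these shares. The lists with the largest shares higher in NZO/HlLtJ were those of MHC class II, T and NK cells, MHC class I and interferon-inducible GTPases. In CAST/EiJ, with all libraries, the lists with the largest shares higher were those of hedgehog signalling, the surface epithelium, the unfolded protein response and mitochondrially encoded transcripts, besides those of the oviduct and fat.

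**Figure D1:**
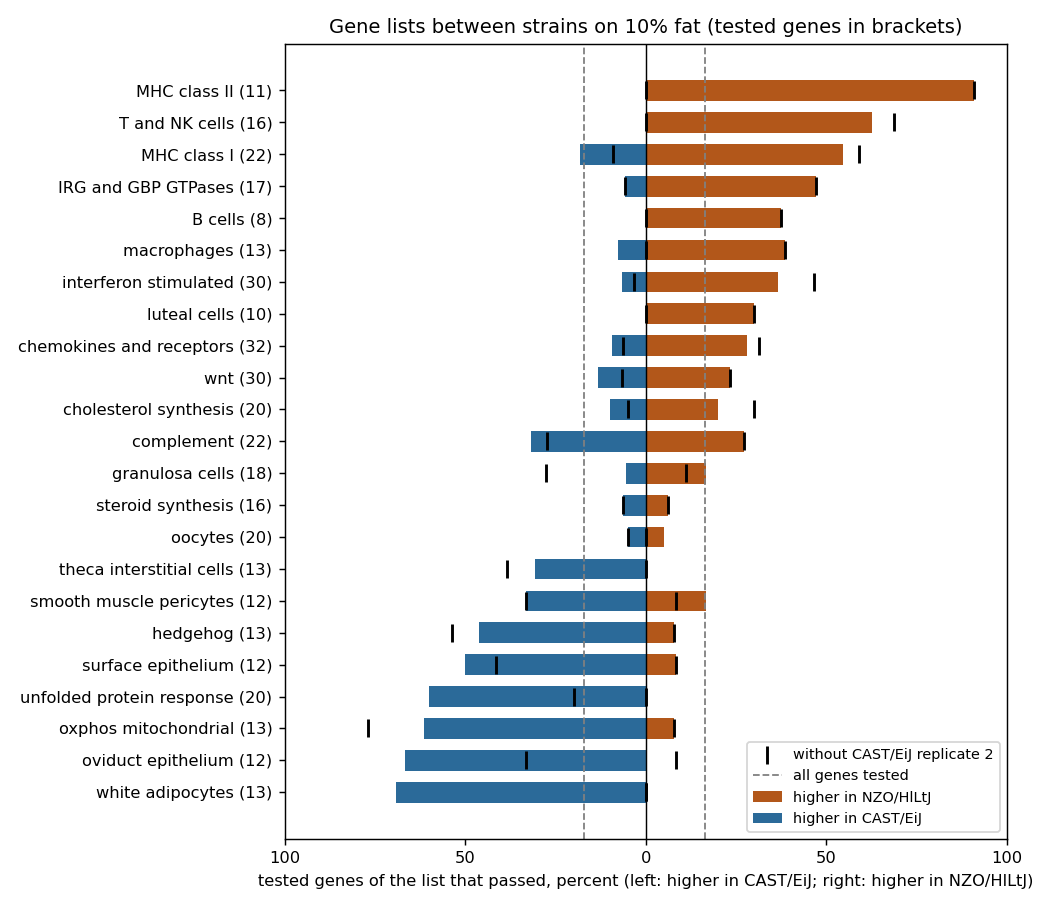
Share of each list's tested genes (percent, horizontal axis) called higher in NZO/HlLtJ (orange, right) or in CAST/EiJ (blue, left) on 10% fat; black ticks give the share without CAST/EiJ replicate 2 and dashed lines the share of all genes tested (16.3% and 17.1%). MHC class II and T and NK cell genes extend furthest to the right, and the oviduct, adipocyte and unfolded protein response bars shrink without CAST/EiJ replicate 2.

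Transcripts of T cells and natural killer cells were more abundant in NZO/HlLtJ ovaries. Of 16 markers tested, 10 were higher in NZO/HlLtJ and 0 in CAST/EiJ, with a median log2 difference of 1.92, and 11 were higher without CAST/EiJ replicate 2. Cd3g, a chain of the T cell receptor complex (ENSMUSG00000002033, chromosome 9, 44969572 to 44980431), stood at 0.804, 0.847, 0.825 and 0.969 CPM in NZO/HlLtJ and 0.0235, 0.0272, 0.0496 and 0.105 CPM in CAST/EiJ. Every NZO/HlLtJ library was above every CAST/EiJ library, and the difference was 15.96-fold (log2 3.996, SE 0.46, edgeR adjusted p of 1.44e-06). The natural killer cell receptor Ncr1 stood at 1.06, 0.687, 1.26 and 1.02 CPM in NZO/HlLtJ and at 0.0469, 0.0815, 0.0745 and 0.158 CPM in CAST/EiJ. That was a 10.9-fold difference without overlap (adjusted p of 0.000137). Gzma, a protease of killer cell granules, ranged over 0.620 to 1.13 CPM in NZO/HlLtJ and 0 to 0.158 CPM in CAST/EiJ, where 1 library held no count (adjusted p of 0.000276). Trbc2, a constant segment of the T cell receptor beta chain, was 4.35-fold higher in NZO/HlLtJ. It is nearly identical to its neighbour Trbc1, and the sum of both was 1.301 ± 0.238 CPM against 0.261 ± 0.111 CPM, also without overlap. The markers most abundant among those not called were Cd4, at 3.12 ± 0.295 and 1.72 ± 0.633 CPM (adjusted p of 0.0653, and 0.0448 without CAST/EiJ replicate 4), and the alpha chain segment Trac, at 0.821 ± 0.252 and 0.913 ± 0.154 CPM (0.696). All these transcripts were rare, and the 16 markers summed to 16.3 to 18.56 CPM in NZO/HlLtJ and 4.944 to 9.724 CPM in CAST/EiJ. In whole tissue, fewer cells of a type and less RNA per cell cannot be told apart.

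B cell and macrophage markers showed the same direction in part. Of 8 B cell markers 3 were higher in NZO/HlLtJ and 0 in CAST/EiJ, with or without CAST/EiJ replicate 2. They were the B cell surface receptor Cd22 (1.64 ± 0.391 against 0.384 ± 0.0608 CPM), the antigen receptor chain Cd79b (0.911 ± 0.134 against 0.185 ± 0.0892 CPM) and the IgM heavy chain Ighm (9.52 ± 1.37 against 3.54 ± 0.557 CPM), with edgeR adjusted p of 2.91e-05, 0.000206 and 0.0021. Immunoglobulin kappa chain Igkc, a product of plasma cells, stood at 21.6 CPM in CAST/EiJ replicate 2 and at 0.540 to 1.87 CPM in the other CAST/EiJ libraries, against 0.620 to 2.27 CPM in NZO/HlLtJ (adjusted p of 0.105). Of 13 macrophage markers 5 were higher in NZO/HlLtJ and 1 in CAST/EiJ. The latter was Cd14, a receptor for bacterial lipopolysaccharide, at 4.12 ± 1.02 and 12.9 ± 11.2 CPM, which was not called without CAST/EiJ replicate 2 (adjusted p of 0.00727 and 0.0559) nor on only the groups compared (0.0757), and which was named after its values were seen. The mannose receptor Mrc1 stood at 52.2, 39.3, 51.5 and 55.2 CPM in NZO/HlLtJ and 20.9, 25.9, 26.0 and 23.97 CPM in CAST/EiJ, a 2.05-fold difference (adjusted p of 5.03e-05). Aif1, Adgre1 and the growth factor receptor Csf1r were 2.16-fold, 2.03-fold and 1.62-fold higher in NZO/HlLtJ, without overlap (adjusted p of 0.00161, 0.00338 and 0.00668). Lysozyme Lyz2, which shares reads with its near copy Lyz1, stood at 145 ± 51.8 and 210.2 ± 41.1 CPM, and the groups overlapped (adjusted p of 0.226). Of the 13 macrophage markers 7 were not called, and the median log2 difference of the list was 0.27. Their summed levels, 350.8 to 542.9 CPM in NZO/HlLtJ and 400.7 to 527.1 CPM in CAST/EiJ, overlapped.

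MHC class II genes, which display peptides to helper T cells, were higher in NZO/HlLtJ almost throughout the list. Of 11 genes tested 10 were higher in NZO/HlLtJ and 0 in CAST/EiJ, with a median log2 difference of 1.53 (1.78 without CAST/EiJ replicate 2, with the same counts). H2-Eb1, a class II beta chain (ENSMUSG00000060586, chromosome 17, 34305877 to 34316199), stood at 66.6, 55.4, 41.1 and 76.7 CPM in NZO/HlLtJ and 9.13, 26.9, 11.9 and 22.7 CPM in CAST/EiJ. The lowest NZO/HlLtJ library lay above the highest CAST/EiJ library, which was replicate 2, and the difference was 3.39-fold (adjusted p of 0.000255). Ciita, the transactivator that class II promoters depend on (ENSMUSG00000022504, chromosome 16, 10488178 to 10527564), stood at 4.14, 4.12, 3.43 and 5.26 CPM in NZO/HlLtJ and 0.891, 1.79, 1.12 and 1.29 CPM in CAST/EiJ, a 3.33-fold difference without overlap (adjusted p of 0.000123). H2-DMa, a chain of the peptide-loading molecule, was 1.69-fold higher in NZO/HlLtJ (adjusted p of 0.000534). For H2-Ob, a chain of the molecule that restrains loading and is typical of B cells, the difference was 4.50-fold (adjusted p of 0.000973). H2-DMb1 was the tested gene of the list that was not called, at 4.57 ± 0.997 and 4.09 ± 1.27 CPM (adjusted p of 0.673), and it shares near-identical sequence with H2-DMb2.

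Class II promoters are known for an X box and a Y box, through which Ciita acts. The letters AACNGNTG (part of the X box) and ATTGG (Y box) were searched on both strands, and no X box match overlapped a Y box match in the stretches shown. RefSeq promoters on build GRCm38.p6 were at hand for 8 of the 13 listed class II genes, and the 250 bases before the start were searched. The Y box letters were in 8 of these 8 genes and in 33.8% of all 32851 promoters, and the X box letters in 4 of 8 genes and in 8.77% of all promoters. A gene was counted if any of its promoters matched. A match is a description of letters and not a site. Bases -110 to -21 from the start are shown for both H2-Eb1 and H2-Ob, which were higher in NZO/HlLtJ, and for H2-DMb1, which was not called, with matches in capitals. They lie at chr17:34305757-34305846, plus strand, at chr17:34238795-34238884, plus strand and at chr17:34153081-34153170, plus strand.
H2-Eb1: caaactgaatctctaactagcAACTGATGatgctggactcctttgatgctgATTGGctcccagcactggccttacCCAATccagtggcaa
H2-Ob: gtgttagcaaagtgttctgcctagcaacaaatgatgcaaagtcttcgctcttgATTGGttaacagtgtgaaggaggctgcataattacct
H2-DMb1: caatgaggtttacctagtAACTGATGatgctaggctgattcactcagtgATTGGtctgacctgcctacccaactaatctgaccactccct

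MHC class I genes, which display peptides of a cell's own proteins to killer T cells, were mixed. Of 22 tested, 12 were higher in NZO/HlLtJ and 4 in CAST/EiJ, or 13 and 2 without CAST/EiJ replicate 2. H2-T22, a nonclassical class I gene, stood at 50.6, 49.0, 70.0 and 57.7 CPM in NZO/HlLtJ and 11.8, 16.001, 16.6 and 12.9 CPM in CAST/EiJ. It is nearly identical to H2-T10, and the sums of both, 61.2 ± 10.01 and 21.3 ± 4.59 CPM, did not overlap between the strains. The class I genes H2-Q10 and H2-D1 were 43.5-fold and 2.62-fold higher in NZO/HlLtJ (adjusted p of 2.73e-08 and 0.000136). Psmb8, an immunoproteasome subunit that cuts proteins into peptides, stood at 22.97 ± 3.88 and 10.6 ± 1.82 CPM (adjusted p of 1.75e-05). B2m, the light chain shared by all class I molecules, was not called, at 209 ± 23.6 and 212 ± 63.6 CPM (adjusted p of 0.937). Its highest library was CAST/EiJ replicate 2, at 304 CPM.

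Interferon-stimulated genes that were called were mostly higher in NZO/HlLtJ, with Mx2 as an extreme in the other direction. Of 30 tested, 11 were higher in NZO/HlLtJ and 2 in CAST/EiJ, or 14 and 1 without CAST/EiJ replicate 2, and the median log2 difference was 0.76. The transcription factor Stat2, which carries the interferon signal to DNA, stood at 62.7 ± 3.18 against 32.7 ± 3.59 CPM (adjusted p of 5.67e-08). Ifi35 and the ubiquitin ligase Trim25 were 2.12-fold and 2.01-fold higher in NZO/HlLtJ (adjusted p of 2.54e-07 and 3.22e-07), and no libraries overlapped for any of these 3 genes. Bst2, which tethers virus particles, was not called, at 99.7 ± 7.26 and 85.6 ± 18.6 CPM (adjusted p of 0.199). Mx2, a dynamin-like antiviral GTPase (ENSMUSG00000023341, chromosome 16, 97535308 to 97560900), went the other way. Its libraries held 0.0230, 0, 0.0868 and 0.0785 CPM in NZO/HlLtJ and 22.99, 34.6, 35.3 and 46.2 CPM in CAST/EiJ, while the mean of C57BL/6J was 3.89 CPM (adjusted p of 4.01e-10). Mx2 shares near-identical sequence with Mx1, and the sums of both, 8.17 ± 2.49 against 40.6 ± 14.2 CPM, did not overlap either.

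Immunity-related GTPases and guanylate-binding proteins, which act on vacuoles that hold parasites and bacteria, included Iigp1, the gene with the largest fold towards NZO/HlLtJ under the naming rule. Of 17 tested, 8 were higher in NZO/HlLtJ and 1 in CAST/EiJ, with or without CAST/EiJ replicate 2. Iigp1 (ENSMUSG00000054072) stood at 22.8, 13.3, 20.4 and 25.1 CPM in NZO/HlLtJ and had no count in any CAST/EiJ library. Against a floor of 3 counts over the CAST/EiJ group it was at least 1064-fold higher in NZO/HlLtJ, and C57BL/6J had 19.3 CPM. Tgtp2 stood at 9.03, 6.64, 6.14 and 6.96 CPM in NZO/HlLtJ and at 0 to 0.0788 CPM in CAST/EiJ. It is nearly identical to Tgtp1, and the sums of both were 17.3 ± 1.92 and 7.18 ± 2.31 CPM, without overlap. The log2 difference of Tgtp2 alone, 7.68, was 8.49 without CAST/EiJ replicate 4. Gbp7, which has a near-identical predicted copy at a low level, was 2.65-fold higher in NZO/HlLtJ, at 56.2 ± 6.21 against 21.2 ± 2.78 CPM (adjusted p of 1.95e-06). Gbp8 was the member higher in CAST/EiJ, at 2.16, 25.02, 1.86 and 4.13 CPM against 0.716 to 1.10 CPM in NZO/HlLtJ (adjusted p of 0.000444), and its fold of 9.42 went to 3.08 without CAST/EiJ replicate 2. Gbp3 was not called, at 17.4 ± 3.51 and 17.8 ± 2.74 CPM (adjusted p of 0.938).

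The letters GAAANNGAA, part of the interferon-stimulated response element, were on either strand in 9 of the 10 genes of this list with a RefSeq promoter. A gene was counted if any of its promoters held the letters, which were in 7.13% of all 32851 promoters. Both called and uncalled members held them, as shown for Tgtp2 (chr11:49064254-49064302, minus strand), Gbp7 (chr3:142530264-142530312, plus strand) and the uncalled Gbp3 (chr3:142559980-142560034, plus strand), all on GRCm38.p6. Capitals mark the letters or their reverse complement.
Tgtp2: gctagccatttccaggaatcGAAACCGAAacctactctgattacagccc
Gbp7: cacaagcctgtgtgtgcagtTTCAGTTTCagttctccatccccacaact
Gbp3: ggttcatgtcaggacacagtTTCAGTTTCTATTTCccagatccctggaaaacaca

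**Figure D2:**
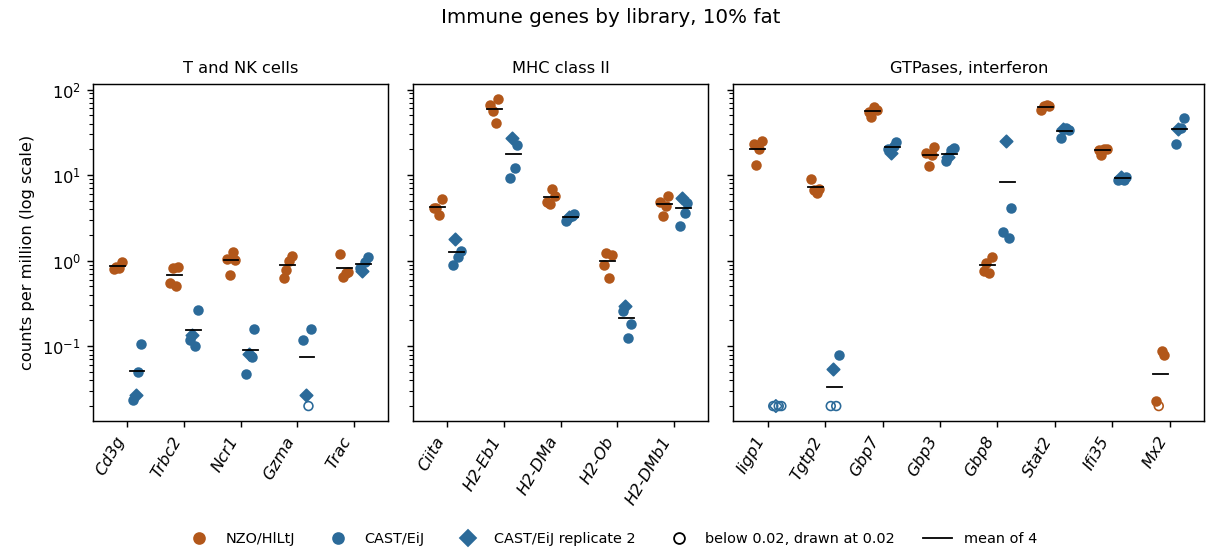
CPM (log scale) of immune genes in each library on 10% fat, NZO/HlLtJ in orange and CAST/EiJ in blue, with CAST/EiJ replicate 2 as a diamond, the mean of 4 as a line and values under 0.02 drawn open at 0.02. Iigp1 had no count in CAST/EiJ, Mx2 and Gbp8 lay higher in CAST/EiJ, and Trac, H2-DMb1 and Gbp3 overlapped.

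The Ifi200 family, DNA-binding proteins encoded by a cluster on chromosome 1, split by member. Of 13 tested, 4 were higher in NZO/HlLtJ and 3 in CAST/EiJ. Ifi202b (ENSMUSG00000026535, chromosome 1, 173962568 to 173982744) stood at 18.4, 14.4, 16.3 and 24.2 CPM in NZO/HlLtJ and 0.516, 0.244, 0.496 and 0.499 CPM in CAST/EiJ, with 0.196 CPM in C57BL/6J, a 41.2-fold difference between the strains (adjusted p of 2.21e-07). Mndal was at 0.0458 to 0.174 CPM in NZO/HlLtJ and 14.5 to 27.2 CPM in CAST/EiJ (adjusted p of 6.55e-14). It shares near-identical sequence with Mnda and Ifi203, and the sums of the 3 genes, 29.5 ± 3.98 and 65.3 ± 11.3 CPM, did not overlap. Aim2, the sensor of cytosolic DNA, was 2.19-fold higher in NZO/HlLtJ (adjusted p of 0.00519). Pydc4, a small pyrin-domain protein, was at 0 to 0.0868 CPM in NZO/HlLtJ and 0.0704 to 1.34 CPM in CAST/EiJ, with overlap (adjusted p of 0.00225), and the sum with its near copy Pydc3 overlapped too. Its log2 difference of -4.04 was -4.72 without NZO/HlLtJ replicate 3.

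Inflammasome, complement and chemokine genes held members at either end. Of 19 inflammasome and gasdermin genes 3 were higher in each strain (15.8%, near the 16.3% and 17.1% of all genes). Without CAST/EiJ replicate 2 they were 5 in NZO/HlLtJ and 4 in CAST/EiJ. Nlrp1a, an inflammasome sensor (ENSMUSG00000069830, chromosome 11, 71092236 to 71144704), had no count in NZO/HlLtJ and 3.92, 4.65, 5.86 and 4.15 CPM in CAST/EiJ, at least 265-fold higher against the floor of 3 counts over the group. The adaptor Pycard was 2.60-fold higher in CAST/EiJ and the flagellin sensor component Naip2 3.85-fold higher in NZO/HlLtJ (adjusted p of 4.22e-06 and 2.38e-06). Of 22 complement genes 6 were higher in NZO/HlLtJ and 7 in CAST/EiJ, or 6 in each without that library. C2, a protease of the classical pathway that lies in the MHC region (ENSMUSG00000024371, chromosome 17, 34862604 to 34898265), stood at 100.1, 87.1, 97.2 and 97.7 CPM in NZO/HlLtJ and 10.3, 6.22, 19.4 and 19.7 CPM in CAST/EiJ (adjusted p of 8.61e-07). The protease C1s1, which acts before it, was 2.68-fold higher in NZO/HlLtJ, and the membrane inhibitor Cd59a 3.51-fold (adjusted p of 1.22e-08 and 1.91e-07). Of 32 chemokines and receptors 9 were higher in NZO/HlLtJ and 3 in CAST/EiJ, or 10 and 2 without it. Cxcr3, a receptor of activated T cells and natural killer cells, stood at 1.21 ± 0.258 against 0.192 ± 0.126 CPM, and the monocyte attractant Ccl8 at 1.55 ± 1.08 and 0.104 ± 0.0710 CPM (adjusted p of 1.05e-05 and 0.000457). Ackr3, a scavenger receptor, was 2.11-fold higher in CAST/EiJ (adjusted p of 6.91e-07).

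Hedgehog signalling genes that were called were mostly higher in CAST/EiJ, among them targets of the pathway. Of 13 tested, 6 were higher in CAST/EiJ and 1 in NZO/HlLtJ, or 7 and 1 without CAST/EiJ replicate 2. The receptor Ptch1, itself a target of the pathway (ENSMUSG00000021466, chromosome 13, 63508328 to 63573598), stood at 204, 217, 191 and 246 CPM in NZO/HlLtJ and 399, 302, 333 and 452 CPM in CAST/EiJ (log2 -0.79, SE 0.11, adjusted p of 1.07e-05). Gli1, a transcription factor and target, stood at 25.8, 28.8, 30.1 and 42.6 CPM in NZO/HlLtJ and 70.2, 142, 50.7 and 78.5 CPM in CAST/EiJ, highest in replicate 2. The ligand-binding inhibitor Hhip was 3.48-fold higher in CAST/EiJ. The groups did not overlap for any of these 3 genes, and the adjusted p of Gli1 and Hhip were 0.000109 and 3.28e-05. The ligand Ihh and the co-receptor Cdon were further members higher in CAST/EiJ, at 92.7 ± 62.3 against 24.5 ± 6.37 CPM and 175 ± 34.1 against 100.3 ± 11.03 CPM, and Gli3 was the member higher in NZO/HlLtJ, at 23.4 ± 0.709 against 14.3 ± 2.52 CPM. These 3 genes fall outside the naming rule and were named after their values were seen. The transducer Smo and the inhibitor Sufu were not called, at 169 ± 6.06 against 173 ± 9.41 CPM and 70.2 ± 6.05 against 69.7 ± 10.3 CPM (adjusted p of 0.691 and 0.951).

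Theca and steroid genes showed few differences beyond that. Of 13 theca and interstitial markers 4 were higher in CAST/EiJ (5 without CAST/EiJ replicate 2) and 0 in NZO/HlLtJ, and Ptch1, Hhip and Gli1 were 3 of the 4. The other was Insl3, a peptide hormone of theca cells, at 3.26 ± 1.09 against 10.9 ± 5.92 CPM (adjusted p of 0.00224); it overlaps the gene Jak3, so that its count is uncertain. Of 16 steroid synthesis genes 1 was higher in each strain, below the background share. Fdxr, the reductase that feeds electrons to mitochondrial steroid enzymes, stood at 335, 254, 509 and 309 CPM in NZO/HlLtJ and 157, 173, 168 and 164 CPM in CAST/EiJ, 2.13-fold higher in the former (adjusted p of 0.000321). The isomerase Hsd3b6 was low in both, at 0.476 ± 0.0479 and 2.83 ± 2.27 CPM (adjusted p of 0.000527), with a fold of 5.89 that was 3.53 without CAST/EiJ replicate 2. Cyp11a1, which cleaves the side chain of cholesterol, was not called, at 1523 ± 605 and 1509 ± 448 CPM (adjusted p of 0.976). Hsd3b1, which makes progesterone, was not called either, at 5609 ± 478 and 4128 ± 1595 CPM (adjusted p of 0.11), with its lowest level of 1775 CPM in CAST/EiJ replicate 2.

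Luteal and Wnt genes included large differences with a wide spread. Of 10 luteal markers 3 were higher in NZO/HlLtJ and 0 in CAST/EiJ, with or without CAST/EiJ replicate 2. Sfrp4, a secreted Wnt inhibitor of the corpus luteum (ENSMUSG00000021319, chromosome 13, 19623175 to 19632821), stood at 574, 268, 164 and 431 CPM in NZO/HlLtJ and 4.76, 53.1, 7.75 and 3.68 CPM in CAST/EiJ. CAST/EiJ replicate 2 was the highest of its group, and the difference of 20.8-fold (adjusted p of 0.00153) was 66.5-fold without it (adjusted p of 0.000181). Ptgfr, the prostaglandin F2α receptor, stood at 186, 254, 35.1 and 115 CPM in NZO/HlLtJ and 12.5, 14.3, 31.2 and 3.39 CPM in CAST/EiJ, so that the lowest of the former was close to the highest of the latter (adjusted p of 0.00333). Without CAST/EiJ replicate 3 its log2 difference of 3.27 was 3.87. The prolactin receptor Prlr was 1.77-fold higher in NZO/HlLtJ (adjusted p of 0.0145), a call lost with a term for the identifier series (0.0617). The luteinizing hormone receptor Lhcgr and the lipoprotein receptor Scarb1 overlapped between the strains (adjusted p of 0.245 and 0.922), and Lhcgr was called, higher in NZO/HlLtJ, without CAST/EiJ replicate 3 (0.0331). Of 30 Wnt pathway genes 7 were higher in NZO/HlLtJ and 4 in CAST/EiJ, or 7 and 2 without CAST/EiJ replicate 2. The ligand Wnt10b stood at 35.5, 67.6, 25.5 and 35.2 CPM in NZO/HlLtJ and 2.32, 0.516, 5.36 and 0.184 CPM in CAST/EiJ (adjusted p of 0.00166), and its log2 difference of 4.27 was 5.30 without CAST/EiJ replicate 3. Sfrp1, another secreted inhibitor, and Axin2, a general target of the pathway, were 2.84-fold and 1.79-fold higher in NZO/HlLtJ (adjusted p of 2.28e-05 and 0.00153).

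Granulosa markers held single members that differed widely between the strains. Of 18 granulosa markers 3 were higher in NZO/HlLtJ (16.7%, near the 16.3% of all genes) and 1 in CAST/EiJ (5.56%, against 17.1%). The counts were 2 and 5 without CAST/EiJ replicate 2. Slc18a2, the vesicular monoamine transporter (ENSMUSG00000025094, chromosome 19, 59260878 to 59296012), stood at 41.8, 55.2, 30.8 and 47.3 CPM in NZO/HlLtJ and 265, 231, 531 and 447 CPM in CAST/EiJ. It was 8.42-fold higher in CAST/EiJ (adjusted p of 3.85e-07), with 150.0 CPM in C57BL/6J between the strains. Kitl, the Kit ligand that granulosa cells present to oocytes, stood at 220.1, 142, 183 and 158 CPM in NZO/HlLtJ and 72.4, 85.5, 48.2 and 49.4 CPM in CAST/EiJ, 2.76-fold higher in NZO/HlLtJ (adjusted p of 1.24e-05). Its receptor Kit, on the oocyte list, stood at 148 ± 37.5 and 84.9 ± 30.4 CPM with overlap (adjusted p of 0.0283), and its call was lost in 6 of 14 alternative fits, those on only the groups compared and without NZO/HlLtJ replicate 1 or 4 or CAST/EiJ replicate 1, 2 or 3 (0.051 to 0.105). Wnt4 was 2.35-fold higher in NZO/HlLtJ (adjusted p of 0.00978). The inhibin chain Inha and the gap junction protein Gja1 of granulosa cells were not called (adjusted p of 0.429 and 0.742). In both, CAST/EiJ replicate 2 was lowest, at 781 and 1295 CPM, against 1723 to 2194 and 2640.0 to 3142 CPM in the other CAST/EiJ libraries.

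Of 20 oocyte markers 1 was higher in each strain, and without CAST/EiJ replicate 2 1 was higher in CAST/EiJ and 0 in NZO/HlLtJ. Padi6 and Nlrp5, parts of the oocyte's cytoplasmic lattice and maternal complex, stood at 116 ± 27.6 against 123 ± 22.9 CPM and 86.0 ± 16.3 against 95.1 ± 17.8 CPM, neither called (adjusted p of 0.849 and 0.685). Oog1 had no count in NZO/HlLtJ and 3.12, 3.48, 4.57 and 4.36 CPM in CAST/EiJ, but it has near-identical copies, and the sums over the copies, 46.6 ± 10.96 and 53.4 ± 10.96 CPM, overlapped. Of 13 meiotic and cohesin genes, Stag3 and Rec8, subunits of the meiotic cohesin ring, were higher in NZO/HlLtJ, at 1.96 ± 0.303 against 0.793 ± 0.285 CPM and 0.540 ± 0.299 against 0.0905 ± 0.0643 CPM (adjusted p of 0.000255 and 0.00119). C57BL/6J had 11.1 CPM of Rec8. Sycp1, of the synaptonemal complex, was higher in CAST/EiJ, at 1.75 ± 0.993 against 0.272 ± 0.0849 CPM (adjusted p of 0.000209). Of 12 ovulatory response genes 4 were higher in CAST/EiJ, and 1 was without CAST/EiJ replicate 2, where 2 were higher in NZO/HlLtJ. The progesterone receptor Pgr, induced in the ovulating follicle, was that 1, at 4.02, 2.77, 3.43 and 3.64 CPM in NZO/HlLtJ and 10.6, 31.4, 15.8 and 9.65 CPM in CAST/EiJ (adjusted p of 0.000205). The 2 were the protease Adamts1 and the hyaluronan-binding Tnfaip6, both named after their values were seen. Adamts1 stood at 76.6, 68.1, 411 and 64.1 CPM in NZO/HlLtJ and 29.6, 488, 33.3 and 26.0 CPM in CAST/EiJ (adjusted p of 0.941, and 0.0145 without replicate 2). Tnfaip6 stood at 3.15, 0.847, 2.43 and 2.28 and 0.540, 12.6, 0.348 and 0.447 CPM (adjusted p of 0.566, and 0.00107 without it), and its log2 difference of -0.67 became 2.28. Of 21 proliferation genes 2 were higher in CAST/EiJ with all libraries (9.52%) and 10 without CAST/EiJ replicate 2, where the share over all genes was 15.8%.

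**Figure D3:**
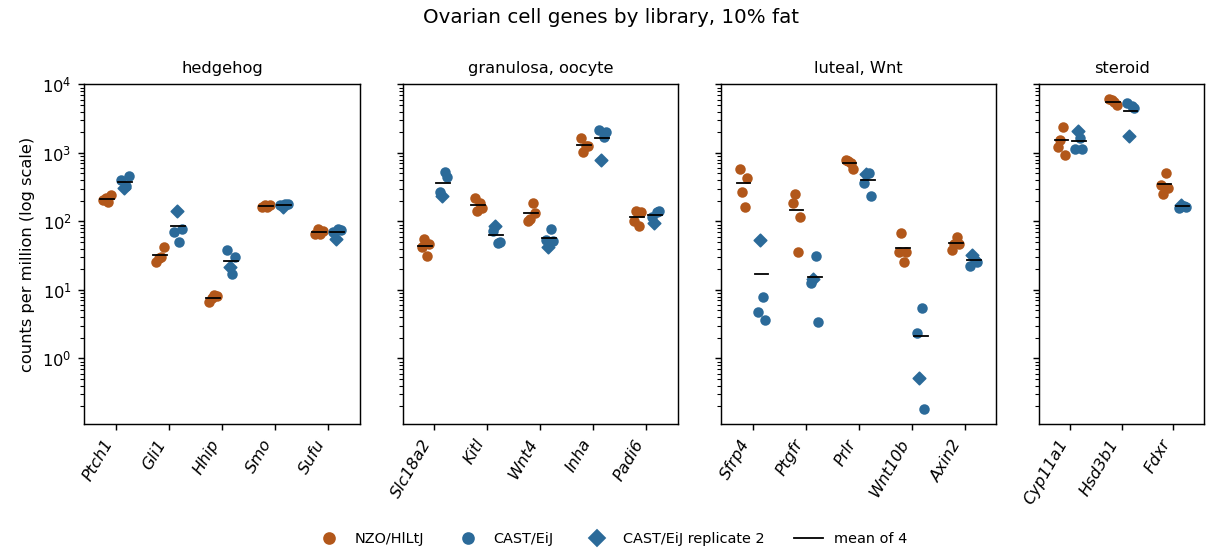
CPM (log scale) of ovarian genes in each library on 10% fat, NZO/HlLtJ in orange and CAST/EiJ in blue, with CAST/EiJ replicate 2 as a diamond and the mean of 4 as a line. Ptch1, Gli1, Hhip and Slc18a2 lay higher in CAST/EiJ without overlap, while Smo, Sufu, Inha, Padi6, Cyp11a1 and Hsd3b1 overlapped.

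Most of the surface epithelium and smooth muscle markers that were called were higher in CAST/EiJ. Of 12 surface epithelium markers 6 were higher in CAST/EiJ and 1 in NZO/HlLtJ, or 5 and 1 without CAST/EiJ replicate 2. The keratins Krt7 and Krt19 were 2.67-fold and 2.73-fold higher in CAST/EiJ, and mesothelin Msln 1.82-fold, without overlap (adjusted p of 0.000924, 0.00162 and 0.00617). Krt19 stood at 103 CPM in CAST/EiJ replicate 2 and at 33.6 to 37.5 CPM in the other CAST/EiJ libraries, so that its fold rested in part on that library. Keratins are also made by the oviduct, whose marker sum was higher in every CAST/EiJ library. In those other than replicate 2, the single marker Dnah5 gave 26.0 to 34.0 CPM of sums of 59.96 to 65.74 CPM. The part of the oviduct in these differences was not tested. Of 12 smooth muscle and pericyte markers 4 were higher in CAST/EiJ and 2 in NZO/HlLtJ, or 4 and 1 without that library. Smooth muscle myosin Myh11 stood at 258, 258, 224 and 254 CPM in NZO/HlLtJ and 531, 499, 461 and 448 CPM in CAST/EiJ, and the actin Acta2 at 349, 351, 342 and 354 and 636, 469, 515 and 517 CPM (adjusted p of 0.00378 and 0.0175). The call of Acta2 was lost without CAST/EiJ replicate 1 (0.0596). The pericyte gene Rgs5 went the other way, 2.27-fold higher in NZO/HlLtJ (adjusted p of 0.00022). Of 13 endothelial markers 3 were higher in each strain, or 2 without that library, and the clotting factor carrier Vwf was 2.89-fold higher in CAST/EiJ (adjusted p of 4.28e-06).

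Matrix and guidance genes gave several of the largest differences among abundant transcripts. Of 33 collagen and matrix genes 7 were higher in NZO/HlLtJ and 5 in CAST/EiJ. The collagen VI chains Col6a1 and Col6a2 stood at 795 ± 105 against 409 ± 85.6 CPM and 509 ± 117 against 267 ± 54.4 CPM (adjusted p of 7.11e-05 and 0.000227). Slit2, a guidance ligand (ENSMUSG00000031558, chromosome 5, 47983138 to 48307733), stood at 406, 174, 221 and 238 CPM in NZO/HlLtJ, at 5.54, 23.9, 6.40 and 4.65 CPM in CAST/EiJ and at 16.7 CPM in C57BL/6J. The difference was 25.7-fold (adjusted p of 7.78e-07) and 46.9-fold without CAST/EiJ replicate 2, the highest of its group. The matrix protein Tnc stood at 759, 200.2, 339 and 705 CPM in NZO/HlLtJ and 29.7, 47.6, 47.2 and 17.4 CPM in CAST/EiJ, and the hyaluronan-degrading Cemip at 270.0, 564, 285 and 159.9 and 19.2, 7.39, 43.8 and 8.25 CPM (adjusted p of 8.82e-05 and 0.00231). Abcb1b, a drug efflux pump, stood at 54.7, 162, 334 and 114 CPM in NZO/HlLtJ and 7.93, 11.6, 7.82 and 3.39 CPM in CAST/EiJ (adjusted p of 0.00043). Its log2 difference of 4.43 was 3.84 without NZO/HlLtJ replicate 3, and that of Cemip, 4.02, was 4.78 without CAST/EiJ replicate 3.

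Growth factor and insulin genes differed by single members. Of 14 genes of the insulin-like growth factor axis 4 were higher in NZO/HlLtJ and 2 in CAST/EiJ, or 6 and 2 without CAST/EiJ replicate 2. The growth factor Igf2 stood at 30.1, 28.6, 25.6 and 32.9 CPM in NZO/HlLtJ and 12.3, 16.5, 13.7 and 13.1 CPM in CAST/EiJ, and the binding protein Igfbp5 was 2.08-fold higher in NZO/HlLtJ (adjusted p of 2.25e-05 and 6.6e-05). Stc2, which inhibits the release of the growth factor from its binding proteins, was 4.46-fold higher in CAST/EiJ (adjusted p of 1.35e-05), or 2.99-fold without CAST/EiJ replicate 2. Of 21 insulin signalling genes 3 were higher in NZO/HlLtJ and 4 in CAST/EiJ, or 4 in each without that library. The receptor Igf1r stood at 304 ± 26.7 against 408 ± 32.4 CPM (adjusted p of 0.00255). Of 14 tested genes known from obesity and diabetes loci of such strains, 4 were higher in NZO/HlLtJ and 2 in CAST/EiJ, among them Ifi202b, described above. Tbc1d1, a regulator of glucose transporter traffic, was 1.35-fold higher in CAST/EiJ (adjusted p of 0.00109). Sorcs1, a sorting receptor, stood at 10.1, 5.56, 0.499 and 6.86 CPM in NZO/HlLtJ and 0.493, 0.978, 0.794 and 0.499 CPM in CAST/EiJ, with overlap from NZO/HlLtJ replicate 3 (adjusted p of 0.000247).

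Sterol, glutathione and fuel genes were split. Of 20 cholesterol synthesis genes 4 were higher in NZO/HlLtJ and 2 in CAST/EiJ, or 6 and 1 without CAST/EiJ replicate 2. Msmo1 was 1.90-fold higher in NZO/HlLtJ, and Sc5d, of the same pathway, 2.97-fold higher in CAST/EiJ, both without overlap (adjusted p of 0.000396 and 0.000279). The sterol carrier Stard4 stood at 71.4, 78.2, 62.9 and 60.7 CPM in NZO/HlLtJ and 26.7, 28.6, 24.9 and 25.5 CPM in CAST/EiJ (adjusted p of 4.68e-07). Of 36 redox and glutathione genes 6 were higher in NZO/HlLtJ (16.7%) and 7 in CAST/EiJ (19.4%), near the 16.3% and 17.1% of all genes. Without that library 8 were higher in each. The glutathione transferase Gstm2 stood at 174, 99.9, 115 and 126 CPM in NZO/HlLtJ and 769, 995, 1267 and 686 CPM in CAST/EiJ, 7.22-fold higher in the latter (adjusted p of 1.29e-05). Gstp2 was 3.17-fold higher in CAST/EiJ, but the sum with its near copies, chiefly Gstp1, overlapped between the strains at 96.4 ± 17.3 and 90.1 ± 7.38 CPM. Of 22 cytochromes P450, 6 were higher in NZO/HlLtJ and 7 in CAST/EiJ, or 6 and 5 without it. Cyp2j6 and Cyp4f14 were 4.03-fold and 4.25-fold higher in NZO/HlLtJ and Cyp4f18 5.91-fold higher in CAST/EiJ (adjusted p of 5.76e-09, 2.88e-05 and 1.75e-05). The log2 difference of Cyp4f18, -2.56, was -3.20 without NZO/HlLtJ replicate 3. The pyruvate dehydrogenase kinases Pdk1 and Pdk4, which turn cells from glucose towards fat, were 2.11-fold and 5.10-fold higher in CAST/EiJ (adjusted p of 2.25e-07 and 3.72e-05). Pdk4 was highest in CAST/EiJ replicate 2, at 279.9 CPM, and at 77.3 to 102 CPM in the other 3 libraries of the strain.

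Genes of the unfolded protein response, which raise folding capacity in the endoplasmic reticulum, differed by small amounts, and most of their calls rested on CAST/EiJ replicate 2. Of 20 tested, 12 were higher in CAST/EiJ, where the share over all genes was 17.1%, and 0 in NZO/HlLtJ, with a median log2 difference of -0.32. Without CAST/EiJ replicate 2, 4 of 20 were higher in CAST/EiJ, near the share of 15.8% over all genes. Those 4 included Pdia6, Creld2 and Edem1, at 1.58-fold, 1.87-fold and 1.35-fold with all libraries (adjusted p of 0.000715, 0.00245 and 0.00247, and 0.00292, 0.00899 and 0.0106 without it). Pdia6 stood at 287, 255, 393 and 289 CPM in NZO/HlLtJ and 523, 578, 343 and 487 CPM in CAST/EiJ, so that CAST/EiJ replicate 3 lay inside the range of NZO/HlLtJ. On 44% fat, in separate libraries, 14 of the 20 were higher in CAST/EiJ and 0 in NZO/HlLtJ, with a median log2 difference of -0.58. The share over all genes higher in CAST/EiJ was 17.4% there. The oviduct marker sum on 10% fat was higher in every CAST/EiJ library. In those other than replicate 2, the single marker Dnah5 gave 26.0 to 34.0 CPM of sums of 59.96 to 65.74 CPM. The part of the oviduct in this list was not tested.

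Oviduct and fat transcripts were extreme in 1 library. Of 12 oviduct markers 8 were higher in CAST/EiJ and 0 in NZO/HlLtJ, and without CAST/EiJ replicate 2 the counts were 4 and 1. Ovgp1, the secreted oviduct glycoprotein, stood at 0.540, 4784, 3.004 and 4.07 CPM in CAST/EiJ and 0.0434 to 0.230 CPM in NZO/HlLtJ. Its fold of 9531 fell to 20.1 without CAST/EiJ replicate 2 (adjusted p of 0.00159 and 0.0408). On the variance-stabilised values limma gave an adjusted p of 0.0893 for Ovgp1 with all libraries, so that the call was lost, and DESeq2 gave no adjusted p for it. With limma the calls of Adipoq and Scd1, described next, were lost too (0.0752 and 0.0859). Dnah5, a motor protein of cilia, was high in all CAST/EiJ libraries, at 34.0, 95.5, 28.4 and 26.0 CPM against 0.174 to 0.618 CPM in NZO/HlLtJ, and was called without replicate 2 as well (log2 -6.93 and -6.29, adjusted p of 0.000126 and 0.000409). Of 13 white adipocyte markers 9 were higher in CAST/EiJ with all libraries and 0 without replicate 2. The hormone Adipoq and the lipid carrier Fabp4 stood at 198 and 752 CPM in that library and at 0.946 to 6.52 and 10.9 to 30.1 CPM in the other CAST/EiJ libraries, against 0.0230 to 0.445 and 1.76 to 10.5 CPM in NZO/HlLtJ. Both calls were lost without it (log2 -8.42 and -5.50 with it, -4.36 and -2.06 without, adjusted p of 0.106 and 0.148). With it kept, the log2 difference of Adipoq was -9.68 without NZO/HlLtJ replicate 4 and that of Fabp4 -6.38 without NZO/HlLtJ replicate 3. Of 19 fatty acid synthesis genes 6 were higher in CAST/EiJ with all libraries and 1 without that library. The desaturase Scd1 stood at 6000.5 CPM in replicate 2 and 65.9 to 205 CPM in the other CAST/EiJ libraries (adjusted p of 0.00573, and 0.285 with log2 -1.11 without it).

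Several of the largest differences lay in genes with near-identical copies elsewhere in the genome, and for those the sum over the copies was compared. Copies were taken as genes with transcripts at least 95% identical over at least 50% of the shorter one. The ribosomal protein gene Rpl9 stood at 28.4 ± 2.89 CPM in NZO/HlLtJ and 512 ± 41.6 CPM in CAST/EiJ, and its processed copy Rpl9-ps6 at 527 ± 22.7 and 0.249 ± 0.332 CPM. Their sum with the other copies was 556 ± 25.3 and 512 ± 41.4 CPM and overlapped. The log2 difference of Rpl9-ps6, 11.01, was 12.54 without CAST/EiJ replicate 3. Rpl17, Rpl19 and Rps12 were 42.5-fold, 17.7-fold and 37.4-fold higher in CAST/EiJ as single genes (adjusted p of 2.15e-15, 1.13e-14 and 6.49e-12). The sums with their copies were 592 ± 31.9 against 541 ± 59.0, 528 ± 16.1 against 528 ± 42.4 and 255 ± 30.4 against 302 ± 31.9 CPM, and all 3 overlapped. The levels of Rpl9, Rpl17, Rpl19 and Rps12 in C57BL/6J, 31.4, 18.998, 30.1 and 6.30 CPM, were close to those of NZO/HlLtJ.

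The enolase copy Eno1b was at 0.0916 to 0.437 CPM in NZO/HlLtJ and 78.1 to 106 CPM in CAST/EiJ. With its copies, chiefly Eno1, the sums were 419.6 ± 86.6 against 398 ± 56.2 CPM, with overlap. The oocyte homeobox gene Obox2 and the globin gene Hba-a1 behaved likewise, with sums of 19.8 ± 4.43 against 25.6 ± 6.16 CPM and 203 ± 103 against 138 ± 108 CPM that overlapped. Tmem254b was an exception beside Tgtp2, Mx2, H2-T22 and Mndal. It had 12.9, 10.002, 17.9 and 13.04 CPM in NZO/HlLtJ and no count in CAST/EiJ, and the sums over Tmem254a, Tmem254b and Tmem254c were 37.4 ± 9.69 and 12.3 ± 5.17 CPM, without overlap. Smaller differences in genes with copies were those of Cd22, Gbp7, C1s1, Prlr and mt-Nd2, for which the sums with the copies did not overlap either.

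Mitochondrially encoded transcripts, which make subunits of the respiratory chain, showed both patterns. Of 13 tested 8 were higher in CAST/EiJ and 1 in NZO/HlLtJ, or 10 and 1 without CAST/EiJ replicate 2. The 1 was mt-Co2, at 1494, 1308, 1634 and 1372 CPM in NZO/HlLtJ and 7.18, 4.43, 3.92 and 3.94 CPM in CAST/EiJ. With its nuclear copies Gm13341 and Gm28661 the sums were 3485 ± 255 and 3908 ± 80.6 CPM, slightly higher in CAST/EiJ and without overlap. The subunits mt-Nd2 and mt-Nd1 were 2.41-fold and 1.61-fold higher in CAST/EiJ (adjusted p of 1.91e-08 and 4.42e-05). For mt-Atp6 the fold was 2.12 (adjusted p of 2.92e-07), and with its nuclear copy the sums were 2599 ± 227 and 3772 ± 163 CPM. Of 26 nuclear genes of the chain, 3 were higher in NZO/HlLtJ and 1 in CAST/EiJ, or 1 in each without CAST/EiJ replicate 2.

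**Figure D4:**
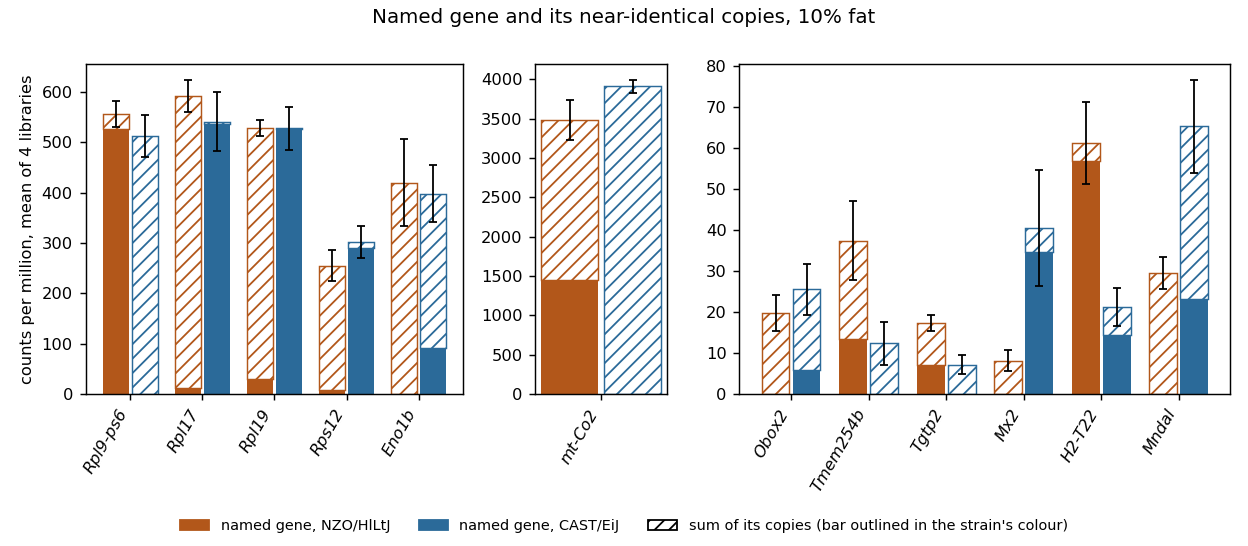
Mean CPM on 10% fat of a named gene (solid) and of its near-identical copies stacked on it (hatched), NZO/HlLtJ in orange and CAST/EiJ in blue; bars reach the sum and error lines are the SD of the sum over 4 libraries. The sums of Rpl9-ps6, Rpl17, Rpl19, Rps12, Eno1b and Obox2 overlapped between the strains, and those of Tmem254b, Tgtp2, Mx2, H2-T22 and Mndal did not.

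Among the other genes with the largest differences by the naming rule, no copy above the identity limit was found. In NZO/HlLtJ these included Fam213b and Sstr1. Fam213b, an enzyme of prostaglandin F2α synthesis, had 6.203, 7.69, 12.9 and 6.02 CPM in NZO/HlLtJ and no count in CAST/EiJ, at least 438-fold against the floor over the group. The somatostatin receptor Sstr1 was at 6.59, 26.4, 13.7 and 4.16 CPM in NZO/HlLtJ, a wide spread, and 0.0543 to 0.237 CPM in CAST/EiJ (adjusted p of 6.36e-06), and its log2 difference of 6.36 was 5.73 without NZO/HlLtJ replicate 2.

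In CAST/EiJ the gasdermin gene Gsdma3 (ENSMUSG00000064224, chromosome 11, 98626360 to 98638226) stood at 29.6, 56.8, 34.1 and 31.8 CPM against 0 to 0.0919 CPM in NZO/HlLtJ (adjusted p of 1.44e-10). The cystatin gene Cst9 (ENSMUSG00000027445, chromosome 2, 148835147 to 148838738) stood at 40.1, 11.8, 22.2 and 39.4 CPM in CAST/EiJ, and 2 counts were found over the NZO/HlLtJ group, a ratio of 2467 with a counting interval of 682.4 to 20370. Both counts were in replicate 2, and without it the fitted log2 difference of -10.90 was -13.10. Gad1, which makes the transmitter GABA, and the tetraspanin Tspan10 were at 11.8 to 15.4 and 12.2 to 20.2 CPM in CAST/EiJ and 0.0217 to 0.0785 and 0 to 0.209 CPM in NZO/HlLtJ (adjusted p of 9.8e-11 and 1.5e-08). The log2 difference of Tspan10, -7.54, was -8.26 without NZO/HlLtJ replicate 4. Coch, an extracellular protein best known from the inner ear, stood at 194, 131, 169 and 317 CPM in CAST/EiJ and 7.03, 10.03, 3.54 and 8.69 CPM in NZO/HlLtJ (adjusted p of 5.03e-09). The sperm flagellum gene Spag6l and the surface protein Plet1 rested largely on CAST/EiJ replicate 2. Their levels there were 37.0 and 447 CPM, against 0.631 to 0.968 and 9.71 to 48.5 CPM in the other CAST/EiJ libraries, and their folds of 302 and 37.0 went to 24.9 and 6.58 without it. For Spag6l the log2 difference of -8.24 was -9.01 without NZO/HlLtJ replicate 1.

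The same strains on 44% fat gave a second measurement in separate libraries. There 6959 genes were called (34.5%), 3439 higher in NZO/HlLtJ and 3520 in CAST/EiJ, each about 17% of the 20189 tested. The list counts on 44% fat are to be read against that share in each direction. Of the 3296 genes higher in NZO/HlLtJ on 10% fat, 2270 (68.9%) were higher on 44% fat too, which is 66.0% of those called there, and 14 were called the other way. Of the 3461 higher in CAST/EiJ, 2148 (62.1%, or 61.0% of those on 44% fat) were called in the same direction and 2 in the other. Across 20189 genes the log2 differences on the diets had a Pearson correlation of 0.80, where genes are not independent replicates. T and NK cell markers were again 10 of 16 higher in NZO/HlLtJ, MHC class II genes 9 of 11 and hedgehog genes 7 of 13 higher in CAST/EiJ. Macrophage markers were called in the other direction there, 1 of 13 higher in NZO/HlLtJ and 6 in CAST/EiJ, and steroid synthesis genes were higher in CAST/EiJ in 6 of 16. Other lists moved too. Of 10 luteal markers 1 was higher in NZO/HlLtJ and 3 in CAST/EiJ on 44% fat, against 3 and 0 on 10% fat. For 33 collagen and matrix genes the counts were 2 and 13, against 7 and 5. For 36 redox and glutathione genes they were 0 and 12, against 6 and 7, or 8 in each on 10% fat without CAST/EiJ replicate 2. More interferon-stimulated genes were called higher in NZO/HlLtJ, with 17 and 1 of 30, against 11 and 2, or 14 and 1 without that library. The median log2 difference of this list was 0.84 on 44% fat and 0.76 on 10% fat, or 0.81 without that library. The difference between the diets was tested gene by gene and not for lists. Iigp1, Mx2, Slc18a2 and Slit2 had log2 differences of 13.07, -9.19, -2.40 and 4.79 on 44% fat.

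The test of the difference itself, the strain difference on 10% fat against that on 44% fat, called 3 genes (0.0149%), with 2297 at an unadjusted p under 0.05 and 194 by DESeq2 (1.07%). The transcription factor Tbx3 stood at 146 ± 27.7 and 53.2 ± 9.54 CPM on 10% fat and at 123 ± 10.9 and 117 ± 10.7 CPM on 44% fat, in NZO/HlLtJ and CAST/EiJ. Its log2 difference, NZO/HlLtJ minus CAST/EiJ, was 1.45 on 10% fat and 0.07 on 44% fat, higher on 10% fat by 1.39 (SE 0.22, edgeR adjusted p of 0.0432). The actin-binding Cotl1 stood at 32.7 ± 4.56 and 27.1 ± 2.20 CPM on 10% fat and 25.8 ± 2.22 and 46.3 ± 10.6 CPM on 44% fat, and the sulfur transferase Tst at 111 ± 18.6 and 63.8 ± 13.9 CPM and at 88.1 ± 9.02 and 115 ± 13.6 CPM. On 10% and 44% fat the log2 differences were 0.27 and -0.84 for Cotl1 and 0.80 and -0.38 for Tst, so that both turned in sign (edgeR adjusted p of 0.0432 and 0.0432 for the difference between diets). For all 3 the CAST/EiJ mean was the one that moved more between the diets. The calls did not hold in every fit, and 0 genes were called in 6 of the 14 alternative fits, those on only the groups compared, with a term for the identifier series and without NZO/HlLtJ replicate 3 or 4 or CAST/EiJ replicate 1 or 4.

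Wnt10b, Abcb1b and Sfrp4 were called on 10% fat and not on 44% fat, but the difference between the diets did not pass. Wnt10b stood at 46.4 ± 28.6 and 62.2 ± 52.2 CPM on 44% fat (adjusted p of 0.179 for the difference between diets), Abcb1b at 94.5 ± 47.5 and 152 ± 136 CPM (0.119) and Sfrp4 at 193 ± 77.2 and 139.8 ± 139 CPM (0.26), in NZO/HlLtJ and CAST/EiJ. Cyp11a1 was not called on 10% fat and stood at 1351 ± 388 and 3854 ± 739 CPM on 44% fat (adjusted p of 0.000221 between the strains there and 0.165 for the difference between diets).

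**Figure D5:**
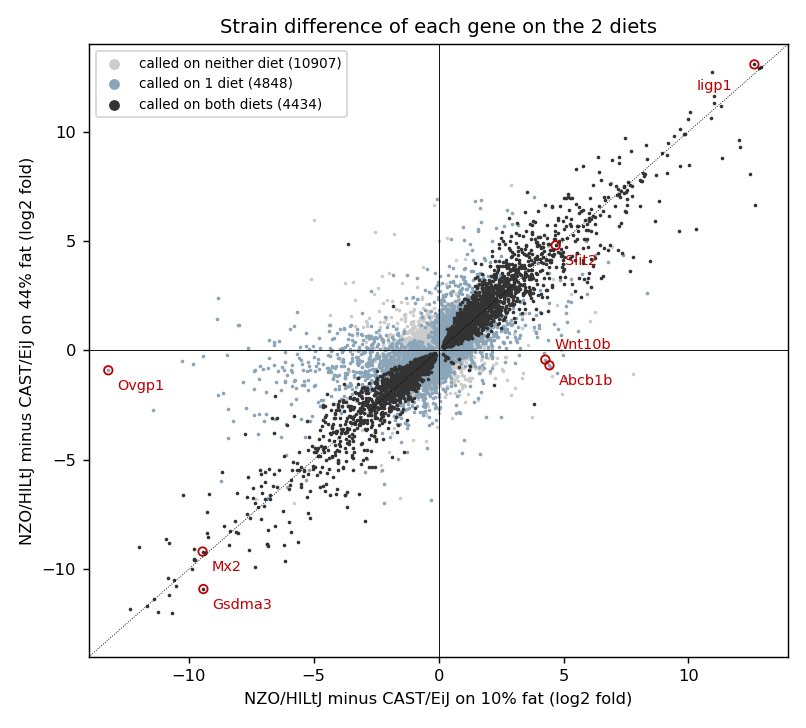
Log2 difference of NZO/HlLtJ minus CAST/EiJ for each of 20189 genes on 10% fat (horizontal) and 44% fat (vertical); black points were called on both diets, blue on 1 and grey on neither, and the dotted line marks equal differences. Most black points lie near the line, Ovgp1 lies far left and fell to a log2 difference of -4.33 without CAST/EiJ replicate 2, and Wnt10b and Abcb1b lie right of 0 on 10% fat and near 0 on 44% fat.

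By position, the genes higher in NZO/HlLtJ by at least 2-fold were most numerous in windows that hold immune gene families. The 2 Mb window of chromosome 17 from 34000001 to 36000000, the MHC, held 20 such genes of 121 tested (16.5%, against 8.29% of all genes) and 8 in the other direction. The window of chromosome 6 from 128000001 to 130000000 held 15 of 52 (28.8%) and 7 in the other direction, among them the natural killer cell receptor genes Klrb1a, Klrb1c, Klrc1, Klrc2, Klrd1, Klre1 and Klrk1. On chromosome 11, from 82000001 to 84000000, 14 of 45 were higher in NZO/HlLtJ (31.1%) and 6 in CAST/EiJ, among them the chemokine genes Ccl5, Ccl6, Ccl7, Ccl8 and Ccl12 and the Schlafen genes Slfn2, Slfn3, Slfn4, Slfn8 and Slfn9. The next windows, on chromosome 4 (13 of 61, and 4 the other way) and chromosome 14 (12 of 15, and 1), held mostly genes with predicted-gene names. Towards CAST/EiJ the window with most such genes was that of chromosome 9 from 88000001 to 90000000, with 16 of 31 (51.6%, against 8.47% of all genes) and 3 in the other direction, including Trim43a, Trim43b and Mthfs. It was followed by a window on chromosome 2 with 13 of 31 higher in CAST/EiJ and 10 higher in NZO/HlLtJ, and by a window on chromosome 4 with 10 of 29 and 3, both of mostly predicted genes. Next came the window of chromosome 4 from 140000001 to 142000000 (10 of 40, and 2 the other way), with the peptidylarginine deiminase genes Padi1, Padi2, Padi3 and Padi4, and 1 on chromosome 3 (10 of 75, and 2). The windows were counted with all libraries and not without CAST/EiJ replicate 2. Without that library the share of all genes higher in CAST/EiJ by at least 2-fold was 6.47%, so windows towards CAST/EiJ may rest in part on it. Neighbouring genes of a family can share reads, and this was checked only for the genes named above with their copies.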

How the data were processed

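The 8 libraries of NZO/HlLtJ and CAST/EiJ on 10% fat are those compared, and the fit used all 23 libraries of the series. The authors deposited expected counts per gene, of which 27.4% were not whole numbers, and log2 variance-stabilised values of the same genes. Build GRCm38 and DESeq2 are named in the submitters' processing notes, and the aligner, the counter and the treatment of strain sequences are not given in the sources used here. A synthetic RNA spike-in was added per the labels' protocols and was not used here.

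Counts were rounded to whole numbers and filtered with filterByExpr (minimum count 10, minimum total 15), which left 20189 of 24716 genes (81.7%). edgeR 4.0.16 in R 4.3.3 fitted 6 group means with TMM scaling, with a common biological coefficient of variation of 0.268, and its quasi-likelihood test was adjusted by Benjamini-Hochberg with a threshold of 0.05. The SE of a log2 difference is its size over the root of the F statistic. Levels are CPM over TMM-scaled totals, and totals of 37.13 to 45.39 M make 1 count about 0.02 CPM. DESeq2 1.42.0, limma 3.58.1 on the variance-stabilised values, RLE scaling, no count filter, a fit on only the groups compared, a term for the identifier series and leaving out each library in turn were tried. The script was tested on simulated data. Copies of a gene were sought among GENCODE M21 transcripts (at least 95% identity over at least 50% of the shorter transcript and at least 200 bases), for the 301 genes considered for naming. A fold against a group with no count used a floor of 3 counts over the group.

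Genes were named by rule: up to 10 per direction with the largest fold and at least 5 CPM, likewise with at least 100 CPM, in both cases called with and without CAST/EiJ replicate 2 and without overlap, then called and abundant uncalled members of each list, and genes whose strain difference depended on diet. Genes of the genome windows, and those said to be named after their values were seen, are outside it, and some genes that the rule names are not reported here. The members and lists were chosen with earlier results of these data known. Replicates were numbered in accession order, and the numbers pair nothing.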

Additional observations from a re-analysis of the deposited data

Results flagged for a closer look

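Over the 155 genes described, each measured in the 4 libraries of either strain on 10% fat, 33 of 310 groups held a library whose distance from the nearest other library exceeded Dixon's 95% critical share of the group's range. The critical share flags about 1 in 20 groups of normally spread values from genes chosen blind. These genes were chosen with results known, some after their values were seen, so 33 of 310 cannot be read against that rate. CAST/EiJ replicate 2 was that library in 22 of the 33, NZO/HlLtJ replicate 3 in 5 and CAST/EiJ replicate 3 in 2. The cause was not tested.

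In CAST/EiJ replicate 2 most of these values were the highest of the group. Oviduct and fat genes were Ovgp1 at 4784 CPM, Dnah5 at 95.5 CPM, Adipoq at 198 CPM, Fabp4 at 752 CPM, Scd1 at 6000.5 CPM and Pdk4 at 279.9 CPM. Epithelial and cell surface genes were Krt19 at 103 CPM, Plet1 at 447 CPM and the flagellum gene Spag6l at 37.0 CPM. Immune genes were Igkc at 21.6 CPM, Gbp8 at 25.02 CPM and Gsdma3 at 56.8 CPM. Genes of the ovulatory response were Adamts1 at 488 CPM, against 26.0 to 33.3 CPM in the other 3 libraries, and Tnfaip6 at 12.6 CPM, against 0.348 to 0.540 CPM. Others were Sfrp4 at 53.1 CPM, Slit2 at 23.9 CPM and Hsd3b6 at 6.22 CPM.

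The same library was the lowest of its group for Ifi202b (0.244 CPM), the co-receptor Cdon (124 CPM, against 185 to 198) and mt-Nd1 (2906 CPM, against 3627 to 3698). Pycard stood at 6.06 CPM there, against 7.65 to 7.96 CPM in the others, and Cd59a at 14.2 CPM, against 11.2 to 11.3 CPM.

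In other libraries, Trac stood at 1.19 CPM in NZO/HlLtJ replicate 1 and Cst9 at 0.0458 CPM in NZO/HlLtJ replicate 2. In NZO/HlLtJ replicate 3 Trim25 stood at 213 CPM, Myh11 at 224 CPM, Rps12 at 11.7 CPM, Fabp4 at 10.5 CPM and Adamts1 at 411 CPM. In CAST/EiJ, mt-Co2 stood at 7.18 CPM in replicate 1, Lhcgr at 408 CPM and Rpl9-ps6 at 0.745 CPM in replicate 3, and Fosb at 0.473 CPM in replicate 4.

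By edgeR's test of the difference between the diets, the signed log2 difference of NZO/HlLtJ minus CAST/EiJ was higher on 10% fat than on 44% fat by 1.39 for Tbx3, by 1.19 for Tst and by 1.11 for Cotl1. For Tst and Cotl1 it was above 0 on 10% fat and below 0 on 44% fat.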

How the results depend on the processing

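The count of genes higher in CAST/EiJ on 10% fat was 3461, and it was 2176 in the fit on only the groups compared, which has fewer samples for the spread. The diet-dependent strain difference was called for 3 genes, and for 194 with DESeq2, 0 on only the groups compared and 0 with a term for the identifier series. Leaving out each 10% fat library in turn gave 5697 to 6631 genes on 10% fat (2829 to 3463 higher in NZO/HlLtJ and 2825 to 3360 in CAST/EiJ), 6705 to 7699 on 44% fat and 0 to 11 for the diet-dependent difference. Of the 155 genes described 132 were called, and 122 of them were called in the same direction in each of the 14 alternatives that gave an adjusted p. The other 10 lost the call in at least 1, 6 of them without CAST/EiJ replicate 2: Adipoq, Fabp4, Scd1, Kit, Fos and Cd14. Tnfaip6, not called with all libraries, changed sign without CAST/EiJ replicate 2, to a log2 difference of 2.28, and ranged from -1.05 to 2.28 when each library was left out. The cause was not tested. Values from limma on the variance-stabilised scale are smaller for low genes by construction. RLE scaling moved the median gene by less than 0.01. No paired analysis was possible because the labels give no replicate numbers. At this depth, genes under about 0.1 CPM rest on a few counts, and their folds carry wide error.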

Other observations

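Imprinted genes, which are expressed from 1 parental copy, held 3 members higher in NZO/HlLtJ and 6 in CAST/EiJ among 26 tested, with or without CAST/EiJ replicate 2. Peg10 stood at 148, 168, 187 and 186 CPM in NZO/HlLtJ and 329.9, 368, 369.9 and 286 CPM in CAST/EiJ, and the groups did not overlap (edgeR adjusted p of 0.000304). Impact, a regulator of translation, stood at 62.9, 58.9, 75.5 and 64.9 CPM in NZO/HlLtJ and 53.2, 48.1, 45.0 and 51.0 CPM in CAST/EiJ (adjusted p of 0.000138). The cation transporter Slc22a3 stood at 0.919, 0.618, 0.478 and 0.707 and 4.46, 14.1, 2.01 and 2.08 CPM (adjusted p of 0.000151), with a fold of 8.28 that was 4.18 without CAST/EiJ replicate 2. Igf2r, which clears the growth factor Igf2 from the cell surface, stood at 219 ± 15.9 and 213 ± 25.7 CPM (adjusted p of 0.837).

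Immediate early genes, which respond to stimulation within minutes and to tissue handling, were higher in NZO/HlLtJ in 3 of 18 and in CAST/EiJ in 1, or in 2 and 0 without CAST/EiJ replicate 2. The shares with all libraries were 16.7% and 5.56%, against 16.3% and 17.1% of all genes. Fosb stood at 12.9, 15.998, 1.52 and 4.27 CPM in NZO/HlLtJ and 0.845, 0.815, 0.844 and 0.473 CPM in CAST/EiJ (adjusted p of 0.000988). Egr2 was 2.30-fold higher in NZO/HlLtJ (adjusted p of 0.00776), and its call was lost without NZO/HlLtJ replicate 1 (0.052) and in the fit on only the groups compared (0.0647). Fos stood at 16.1 ± 8.64 and 7.22 ± 2.05 CPM (adjusted p of 0.0424), and its call was lost in most alternatives, among them those without CAST/EiJ replicate 2 (0.0654) and without NZO/HlLtJ replicate 2 (0.155). Egr1 was not called, at 99.7 ± 34.99 and 80.4 ± 14.7 CPM (adjusted p of 0.404).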
